A study of Mus musculus with 2 samples.

Results

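The genes described here encode the proteins that fold chromosomes, hold them at the nuclear envelope and pack them into heterochromatin. They were the 40 genes of a list of names, of 21225 protein-coding genes with a value, and all 40 had one. The samples were mouse 46C embryonic stem cells (strain 129P2/Ola), an established line kept undifferentiated with leukemia inhibitory factor. The cells took up 50 µM bromodeoxyuridine (BrdU), a thymidine analogue that marks newly made DNA, for 2 h. Sorting on DNA content gave 1 library of early and 1 of late S phase cells, for each of which the DNA of 10000 cells was precipitated with an antibody to BrdU, amplified and sequenced on the Ion Torrent platform. Both groups are the same line with the same label and differ in the stage of S phase that was sorted.

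The authors combined both libraries into 1 score per genomic position, smoothed over 300 kb. Positive scores were read as early replication, from the order of words in the name of the deposited table; if the authors took the ratio the other way, early and late swap in every statement below. The sources used here name no unit, log base or zero point for it, so a difference in score is not a fold change. Read depth is unknown, there were no replicate libraries, and no test between conditions or error of a single value is possible. Each gene took the score of the position nearest to its midpoint, at most 2.89 kb away for these genes. The score measures DNA and not expression, so the label of stem cells could not be checked against marker transcripts, and the scores say when a gene's DNA was copied and not how much of its product was made.

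Cohesin is a ring of SMC proteins that holds sister chromatids together and extrudes DNA loops, which the zinc finger protein CTCF halts. Condensin, a related ring, compacts mitotic chromosomes and exists in a form I and a form II that share the SMC2 and SMC4 pair, and the SMC5 and SMC6 complex acts in DNA repair. The lamina lines the inner nuclear membrane, where late-replicating chromatin is often found, and HP1 proteins bind histone H3 methylated at lysine 9, the mark of constitutive heterochromatin.

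Genes for these structures lay mostly in early-replicating DNA, including those of the lamina and of heterochromatin. Of the 40 genes 37 had a score above 0, or 92.5%, where 73.5% of all protein-coding genes did and 26.5% were at or below 0. Above 0.5 lay 33 members, and 64.0% of all protein-coding genes. The members were chosen with earlier results of these data known, so they are not an unselected set. The median of the members was 1.42 (95% order-statistic interval over genes 1.35 to 1.61, n = 40 genes), and that of all protein-coding genes was 1.02 (quartiles -0.08 and 1.52). The interval is one for the median over genes, which are not replicates, and holds no experimental error. It is narrower than the spread of the members, whose quartiles were 0.93 and 1.65. Of the members, 17 lay above the upper quartile of protein-coding genes and 3 below the lower one. The members below 0 were Smc2, Ncapg and Syne1, at -0.75, -0.45 and -0.83. The members were spread over 18 autosomes, and only Ehmt2 and Daxx, on chromosome 17, shared a domain.

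**Figure D1:**
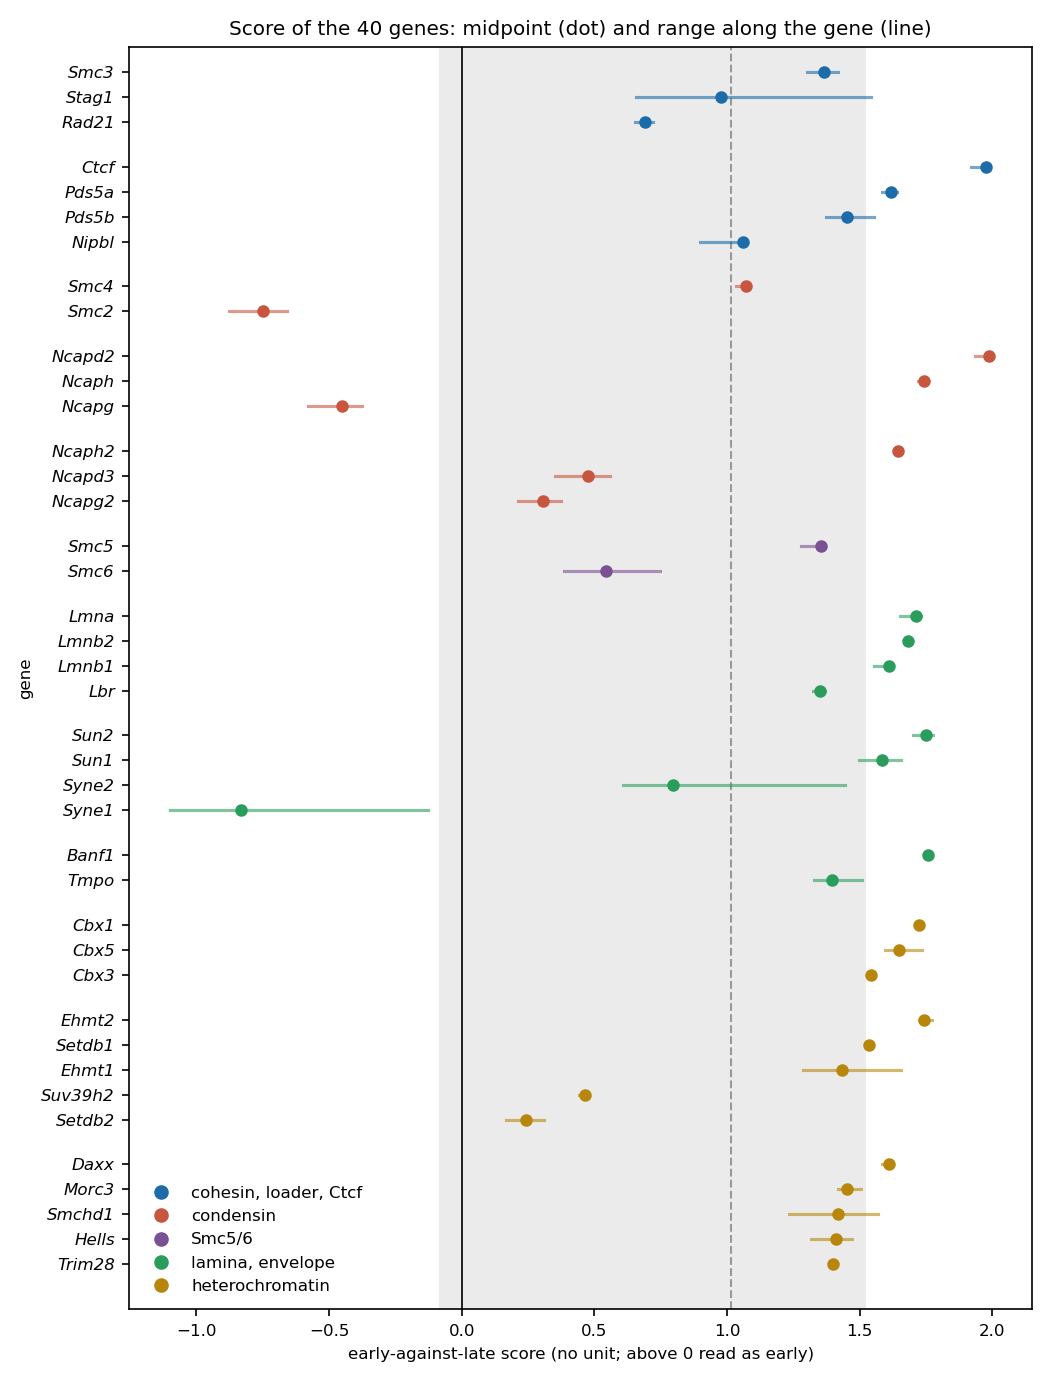
Early-against-late score (x axis, no unit) of the 40 genes, grouped by complex; dots are the score at the gene midpoint and lines the range along the gene. The grey band runs between the quartiles of all protein-coding genes (-0.08 and 1.52), the dashed line is their median (1.02), and Smc2, Ncapg and Syne1 are the dots left of 0.

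All 7 genes of cohesin and its partners were early, with a median of 1.37. Of all protein-coding genes 73.5% were above 0, with a median of 1.02. Within the ring, Smc3, an SMC subunit, had 1.37 (chromosome 19, 53600396 to 53645831). Rad21, the kleisin that closes the ring, was lower at 0.69 (chromosome 15, 51962604 to 51993538), with 0.72 and 0.65 at its ends. Stag1, which encodes a subunit that binds RAD21, had 0.98 at its midpoint. That gene spans 361 kb of chromosome 9, and the score fell to 0.66 inside it while its ends had 1.54 and 1.14, so a single value does not describe it. Nipbl, the gene of the loader that drives loop extrusion, had 1.06 at its midpoint and stayed between 0.91 and 1.06 over 30 positions along 175 kb. The regulators Pds5a and Pds5b, whose products bind the ring and govern its release, had 1.62 and 1.45. Ctcf was the second highest of all members at 1.97 (chromosome 8, 105636474 to 105682922), above 99.7% of protein-coding genes. It lay 0.00148 below the highest score in the 500 kb to either side.

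Condensin genes had scores from -0.75 to 1.99, and 6 of 8 were above 0, or 75.0%, close to the 73.5% of all protein-coding genes. Their median was 0.78, below the 1.02 of all protein-coding genes. The range held both the highest member and the second lowest. The SMC pair that every condensin needs lay far apart. Smc2 had -0.75 (chromosome 4, 52439221 to 52488365), with -0.88 and -0.66 at its lower and higher-coordinate ends, whereas Smc4 had 1.07 (chromosome 3, 69004738 to 69034623), with 1.03 and 1.08 at its ends. Among the genes of condensin I, the form that reaches chromosomes once the nuclear envelope has opened, Ncapd2 had 1.99 (chromosome 6, 125168007 to 125192100) and the kleisin gene Ncaph 1.74, but Ncapg had -0.45 (chromosome 5, 45669891 to 45700547). Among those of condensin II, which is nuclear also in interphase, the kleisin gene Ncaph2 had 1.64 while Ncapd3 and Ncapg2 had 0.48 and 0.31. Both condensins thus had subunit genes above 1.6 and others below 0.5. The repair pair was closer, with Smc5 at 1.36 and Smc6 at 0.54, the latter running from 0.75 to 0.39 along its 53.9 kb.

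The genes of the lamina were early and close together. Lmna, which encodes the A-type lamins, had 1.71 (chromosome 3, 88481148 to 88509932). The B-type lamin genes Lmnb1 and Lmnb2 had 1.61 and 1.68, and Lbr, the gene of the lamin B receptor that tethers heterochromatin to the envelope, had 1.35. Banf1, whose product crosslinks DNA at the reforming envelope, had 1.76, and Tmpo, the gene of the lamin-binding LAP2 proteins, had 1.40. The SUN proteins and nesprins join the lamina to the cytoskeleton across both nuclear membranes, and their genes were split. Sun1 and Sun2 had 1.58 and 1.75, the latter inside an early domain of 10.9 Mb. The nesprin genes are the long ones of the group: Syne2 (293 kb) had 0.80 at its midpoint, with 1.00 and 1.45 at its ends and a low of 0.61 inside, and Syne1 (531 kb) was the lowest member at -0.83.

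All 13 heterochromatin genes were early, with a median of 1.45, beside 73.5% and 1.02 for all protein-coding genes. They also had more neighbours, with a median of 22 other protein-coding genes within 500 kb against 15 for all protein-coding genes. The HP1 genes were nearly level, with Cbx1 at 1.73, Cbx5 at 1.65 and Cbx3 at 1.54, on 3 chromosomes. The H3K9 methyltransferase genes spread over more of the scale. Ehmt2, which encodes G9a, had 1.74 and its partner Ehmt1, which encodes GLP, had 1.43. Setdb1, whose product silences retroelements in stem cells, had 1.53 (chromosome 3, 95323525 to 95357202). The lowest of the 13 were Suv39h2, an enzyme of pericentric heterochromatin, at 0.47 and Setdb2 at 0.24 (chromosome 14, 59402009 to 59440880). Among the remaining factors, Trim28, the corepressor that recruits SETDB1 to zinc finger proteins, had 1.40, and the remodeller gene Hells had 1.41. Smchd1, an SMC-like silencing factor of the inactive X, had 1.42, Morc3 had 1.45 and the histone H3.3 chaperone gene Daxx had 1.61. These 5 lay within a range of 1.40 to 1.61, in 5 different domains.

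Related genes were set side by side in 17 pairs. Pairs that share a gene, such as those of Smc2, the lamins and the HP1 genes, are not separate observations. No share over pairs of all protein-coding genes is given, so the counts below only describe these pairs. In 9 pairs the scores were less than 0.25 apart, among them, as the first minus the second, Ncaph and Ncaph2 (0.098), Lmna and Lmnb2 (0.030), Sun1 and Sun2 (-0.17), Pds5a and Pds5b (0.17) and all pairs of HP1 genes. In 5 pairs they were more than 1 apart. Smc3 exceeded Smc2 by 2.12, Ncapd2 exceeded Ncapd3 by 1.51 and Setdb1 exceeded Setdb2 by 1.29. Smc2 against Smc4 gave -1.82 and Syne1 against Syne2 -1.63. Read at either gene end or as the mean of 300 kb around the midpoint, these 5 differences had sizes of 1.20 to 2.30 and kept their direction. Some of the 9 close pairs passed 0.25 in these readings. Pds5a and Pds5b were 0.27 apart at the higher-coordinate end. As the 300 kb mean, Lmnb1 and Lmnb2 were 0.32 apart and Cbx3 and Cbx5 0.26, so the HP1 pairs were not all within 0.25 there. All of these readings come from the same profile smoothed over 300 kb, so they are not independent of the midpoint values. There is no replicate to say how much of a smaller difference is noise, and each pair is 2 places in the genome.

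The late members differed in their surroundings. Smc2 lay deep in a late domain of 4.42 Mb (median -1.16), 753 kb from its edge. It was a local high there, since positions 250 kb to either side had -1.47 and -1.40, and the score peaked at -0.39 at 117 kb toward higher coordinates. Its only protein-coding neighbour within 300 kb was Toporsl at -0.46. Ncapg lay at the border of a late domain of 6.46 Mb (median -1.34), with the sign change 61.2 kb from its start. On that side lay an early run of only 173 kb, narrower than the smoothing, whose highest score was 0.24. The neighbours there, Qdpr, Clrn2, Lap3 and Med28, had 0.071, 0.17, 0.24 and 0.22, and Fam184b, between them and Ncapg, had 0.074. Lcorl on the other side had -0.94. Syne1 filled most of a late domain of 0.920 Mb and had no protein-coding neighbour with a midpoint within 300 kb. Its score was -1.10 at the 3′ end and -0.13 at the 5′ end, where the most upstream start of this minus-strand gene lies. Read between them at steps of 25 kb, it climbed to -0.64, fell back to -0.91 and climbed again, staying below 0. The domain ended 51.8 kb beyond the 5′ end. Smc2 and Ncapg did not change sign along their length either.

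**Figure D2:**
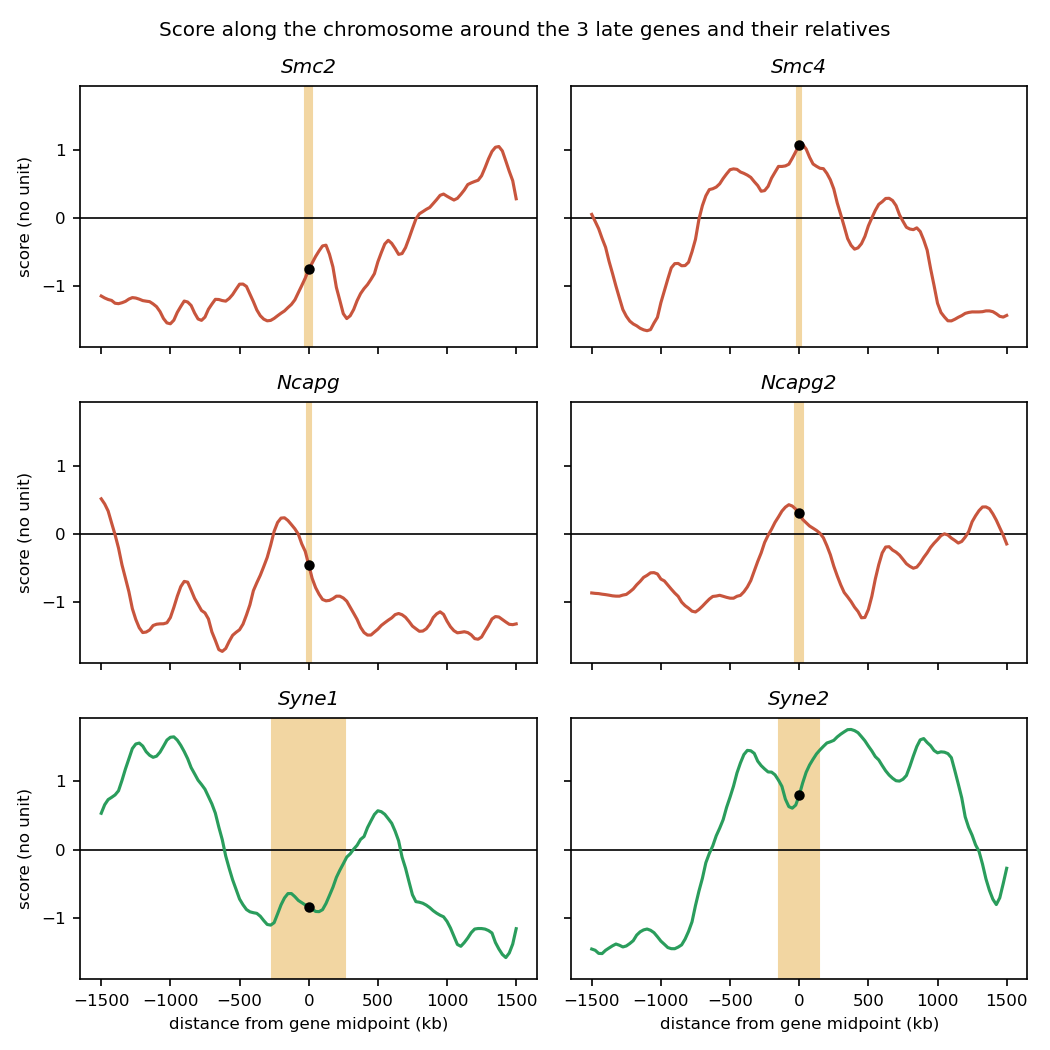
Score (y axis, no unit) at steps of 25 kb within 1500 kb of the gene midpoint (x axis, kb) for Smc2, Ncapg and Syne1 (left) and their relatives Smc4, Ncapg2 and Syne2 (right). Black dots mark the score at the midpoint and shading the extent of the gene; Smc2 (-0.75) sits on a local high below 0, Ncapg (-0.45) on a slope and Syne2 (0.80) in a dip above 0.

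Promoter sequences are shown for the late members and for the members with the highest scores, because these are the ends of the range. The windows are RefSeq's, on build GRCm38.p6, from 250 bases before to 50 after a start site, the most upstream where the promoter table lists several, which need not be the outer end of the gene. They are written 5′ to 3′ in the sense of the gene, with each CG dinucleotide (CpG) in capitals.
Smc2 (chr4:52438971-52439270, plus strand): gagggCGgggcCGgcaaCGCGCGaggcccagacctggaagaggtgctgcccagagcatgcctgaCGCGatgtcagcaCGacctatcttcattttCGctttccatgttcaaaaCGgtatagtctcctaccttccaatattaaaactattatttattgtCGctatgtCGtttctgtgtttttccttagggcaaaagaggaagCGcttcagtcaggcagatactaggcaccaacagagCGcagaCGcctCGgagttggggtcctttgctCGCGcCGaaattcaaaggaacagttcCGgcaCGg
Ncapg (chr5:45669675-45669974, plus strand): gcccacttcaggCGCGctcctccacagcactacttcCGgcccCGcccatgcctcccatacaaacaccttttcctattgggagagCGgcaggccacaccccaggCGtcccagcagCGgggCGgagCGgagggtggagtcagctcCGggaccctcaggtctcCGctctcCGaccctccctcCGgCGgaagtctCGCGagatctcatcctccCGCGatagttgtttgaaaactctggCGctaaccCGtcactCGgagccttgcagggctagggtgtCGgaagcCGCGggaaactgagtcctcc
Syne1 (chr10:5550643-5550942, minus strand): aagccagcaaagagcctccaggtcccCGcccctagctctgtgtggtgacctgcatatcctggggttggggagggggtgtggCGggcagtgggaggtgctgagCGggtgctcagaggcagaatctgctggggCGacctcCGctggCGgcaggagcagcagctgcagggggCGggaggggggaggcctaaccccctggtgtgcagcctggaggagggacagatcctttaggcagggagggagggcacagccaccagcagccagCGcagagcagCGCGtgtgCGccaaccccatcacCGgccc
Ncapd2 (chr6:125191537-125191836, minus strand): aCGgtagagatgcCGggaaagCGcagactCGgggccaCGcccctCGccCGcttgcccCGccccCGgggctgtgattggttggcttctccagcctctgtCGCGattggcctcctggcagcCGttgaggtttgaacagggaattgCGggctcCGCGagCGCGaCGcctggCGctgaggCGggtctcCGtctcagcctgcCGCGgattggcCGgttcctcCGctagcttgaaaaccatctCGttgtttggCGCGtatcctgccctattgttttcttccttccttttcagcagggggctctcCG
Ctcf (chr8:105636288-105636587, plus strand): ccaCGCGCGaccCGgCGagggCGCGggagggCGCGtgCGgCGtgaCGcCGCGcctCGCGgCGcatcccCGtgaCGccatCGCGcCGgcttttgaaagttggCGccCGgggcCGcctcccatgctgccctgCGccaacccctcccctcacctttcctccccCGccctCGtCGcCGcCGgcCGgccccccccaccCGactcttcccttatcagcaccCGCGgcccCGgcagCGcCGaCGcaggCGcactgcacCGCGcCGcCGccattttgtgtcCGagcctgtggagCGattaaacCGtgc

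A low CpG content was not shared by the late members. Smc2 had 21 CG dinucleotides and an observed over expected ratio of 1.01 at a GC content of 52.7%, beside 29 and 0.935 for Ncapd2 and 47 and 1.16 for Ctcf. Ncapg had 24 and 0.772. Syne1, with 12 and 0.347, was the only late member under 0.6, a customary limit for CpG islands. Syne1 had 3 start sites and only the most upstream one was read. Of the 40 genes 36 had a window, and no window was used for Rad21, Nipbl, Smc4 and Lmnb1. The ratio exceeded 0.6 in 33 of the 36, or 91.7%, and in 49.5% of the windows of all 17030 protein-coding genes that had one (58.7% of those above 0 and 24.4% of those below). The other exceptions were Smc5 at 0.403, with a score of 1.36, and Lmna at 0.043, with 1.71; Lmna had 2 start sites and the upstream one was read. At least 1 CG was present in all 36 windows and in 95.1% of all windows.

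Early members were found in gene-poor as well as gene-rich neighbourhoods. The 40 had a median of 11 other protein-coding genes within 500 kb of the midpoint, where all protein-coding genes had 15. Of the members, 15 had at most 8 such neighbours, the lower quartile of that number, and 12 of these were above 0, where 52.3% of all genes with so few neighbours were. Their median was 1.06 and that of all such genes 0.074. Tmpo had 3 neighbours and a score of 1.40, Smc5 had 4 and 1.36, Cbx3 had 5 and 1.54, and Lmnb1 had 7 and 1.61. The late members belonged to the same class, with 4 neighbours for Smc2, 6 for Ncapg and 5 for Syne1. In the next class, of 9 to 15 neighbours, all 9 members were above 0, against 80.0% of its genes. The 16 members with more neighbours ranged from 1.40 (Trim28, 30 neighbours) to 1.99 (Ncapd2, 40 neighbours). The classes were set after the scores had been seen.

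**Figure D3:**
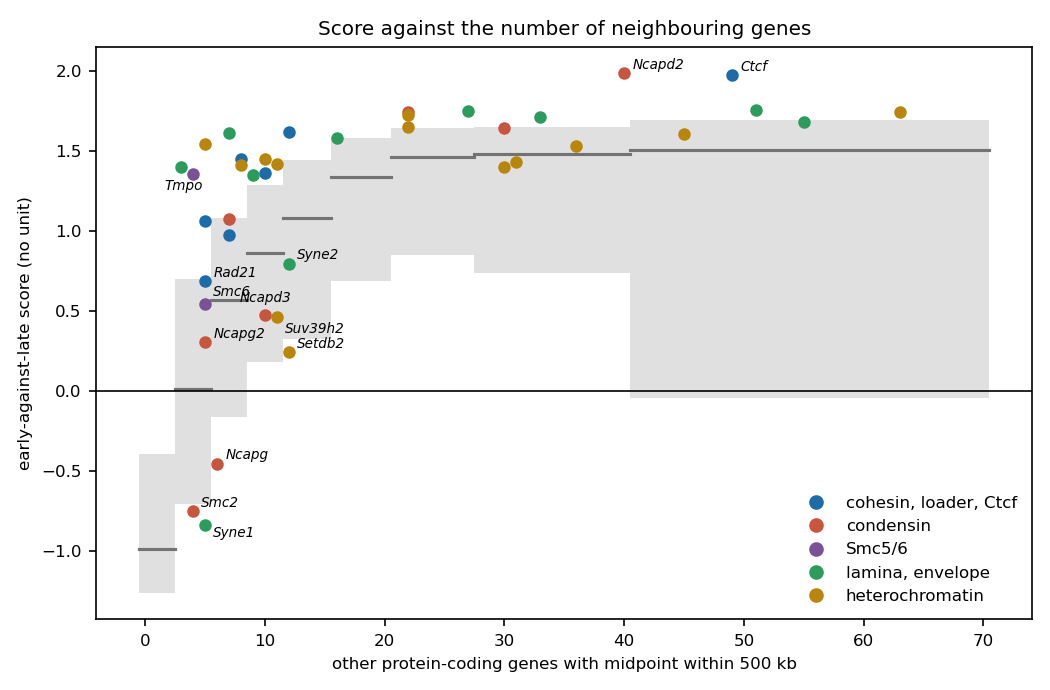
Score (y axis, no unit) of the 40 genes against the number of other protein-coding genes with a midpoint within 500 kb (x axis); grey bands and bars are the quartiles and medians of all protein-coding genes in classes of that number. Tmpo (3 neighbours, 1.40) lies above its band, while Smc2 (4) and Syne1 (5) lie below theirs.

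Early members lay in domains of all lengths, where a domain is a run of positions of one sign. The lengths had a median of 1.51 Mb, beside 2.39 Mb for all early protein-coding genes. Of the 37 early members 11 lay in a domain shorter than 1 Mb, or 29.7%, where 20.0% of early protein-coding genes did. The 6 shortest held Suv39h2 (0.299 Mb), Smc6 (0.311 Mb), Ncapd3 (0.363 Mb), Ncapg2 (0.368 Mb), Rad21 (0.432 Mb) and Setdb2 (0.529 Mb). These 6 genes also had the lowest scores of the early members, from 0.24 to 0.69. Domain length is taken from the same score, and early protein-coding genes as a whole showed the same order, with a median of 0.72 in domains under 1 Mb and 1.45 in longer ones (0.69 and 1.60 for the members). The nearest domain edge was 0.077 to 0.148 Mb from the midpoint for 5 of the 6 genes, so that 150 kb to either side reached past it, and 0.252 Mb for Setdb2; the part of the smoothing in their scores was not tested. Tmpo, Trim28, Lmnb1, Smc5 and Stag1 were in domains of 0.656 to 0.994 Mb and had 0.98 to 1.61. At the other end 5 early members lay in domains of 5 Mb or more, or 13.5% against 16.4% of early genes: Sun1, Sun2, Cbx1, Ehmt2 and Daxx. Within 300 kb of a domain edge lay 10 early members, or 27.0%, against 32.2% of early genes. The steepness of the surroundings differed widely: within 500 kb of Tmpo the score ranged over 3.52, from a low of -1.86, and within 500 kb of Setdb1 over 0.36.

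**Figure D4:**
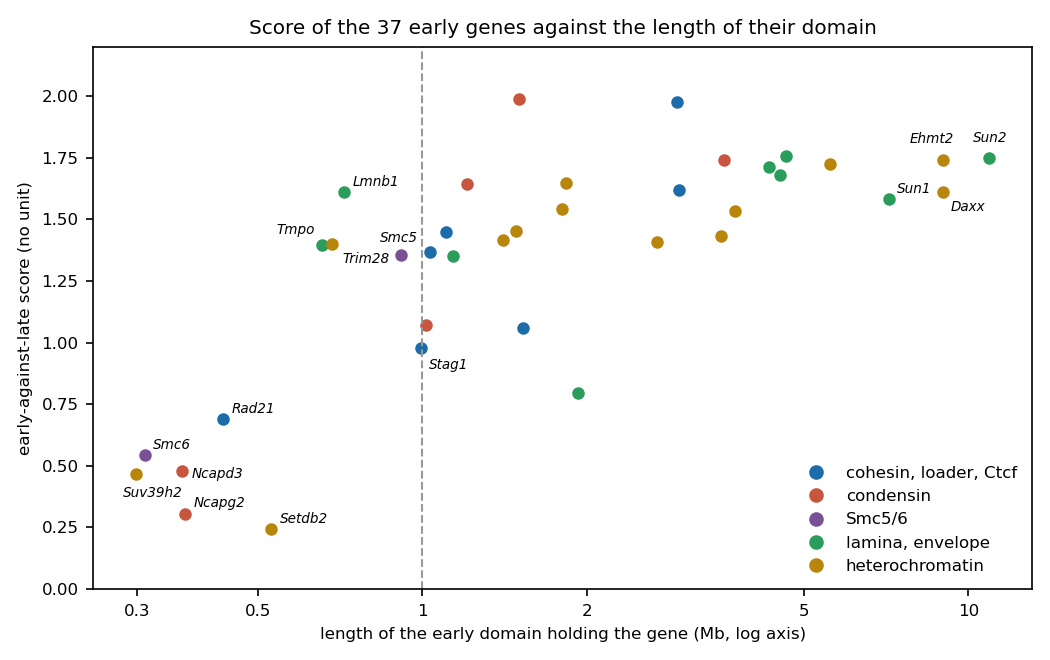
Score (y axis, no unit) of the 37 early genes against the length of the early domain that holds them (x axis, Mb, log axis); the dashed line marks 1 Mb. The 6 genes in domains of up to 0.529 Mb have scores of 0.24 to 0.69, below all other early genes.

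The other genes of the same pathways were also mostly early. Their list, like that of the members, was chosen with earlier results of these data known, so it is no independent check. Of 69 such genes 65 were above 0, with a median of 1.31, beside the 73.5% and 1.02 of all protein-coding genes. All 17 further cohesin genes were early, from Sgo2a, a protector of centromeric cohesion, at 0.25 and the securin gene Pttg1 at 0.38 to the sororin gene Cdca5 at 1.66 and Mau2, partner of Nipbl, at 1.70. All 20 further lamina and envelope genes were early, from Sun3 at 0.36 and Lemd3 at 0.84 to the torsin genes Tor1b at 1.88 and Tor1a at 1.89. Tor1a and Tor1b overlap, and neighbouring genes of this list were not counted as 1, so the genes are not all separate places. Of 7 further Smc5/6 genes 6 were early, with Nsmce1 at 0.073 near 0 and Eid3 and Slf2 the highest at 1.45 and 1.59. Slf1, which recruits the complex to damaged DNA, had -1.12. Of 25 further heterochromatin genes 22 were early, with Kmt5b at 1.64 and Baz1b at 1.76 the highest. Those below 0 were Lrif1, whose product binds HP1, at -1.21, and the PR domain genes Mecom at -1.35 and Prdm16 at -0.055. Both PR domain genes changed sign along their length, since Mecom had 0.41 at its higher-coordinate end and Prdm16 had 0.71 and 0.91 at its ends. The run below 0 at the Prdm16 midpoint was 0.052 Mb long, narrower than the smoothing, and the mean inside that gene was 0.34.

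None of the 40 members is on the X chromosome, where 53.7% of protein-coding genes were above 0 and their median was 0.084. The 7 other pathway genes there were all above 0, from 0.90 to 1.58. They included the cohesin genes Smc1a (1.58) and Stag2 (1.05), the emerin gene Emd (1.39), the H3K9 methyltransferase gene Suv39h1 (1.40) and Atrx (1.07), partner of Daxx. Suv39h1 was thus above its autosomal relative Suv39h2 (0.47), and Stag2 lay near Stag1 (0.98). The X-linked genes were singled out after their values were seen.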

How the data were processed

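Early and late S phase BrdU-labelled DNA was sequenced from 1 library per fraction, with no replicates and unknown depth. Bowtie2 and genome build mm10 are named in the submitters' processing notes. The deposited value is a score that the authors made from both libraries and smoothed over 300 kb; for counting, scaling, log base and zero point nothing is given in the sources used here. The table held 384798 positions (4 without a value left out; 0 columns of per-sample values unused) at a median spacing of 5778 bp. Genes came from a RefSeq table of GRCm38.p6, whose chromosomes are those of mm10, after 348 entries of scaffolds and alternate sequences were dropped. A gene took the score nearest its midpoint, within 100 kb. A domain is an unbroken run above or below 0, also ended by a gap of more than 300 kb. Python 3.11.15, numpy 2.4.6, pandas 2.3.3 and scipy 1.17.1 were used, and the lookup, domain and interval code was tested on simulated data. All members may be named; of other pathway genes those at or below 0 and the top 2 and bottom 2 of each list, plus those on X. The members and lists were chosen with earlier results of these data known. With 1 library per group no test between groups was made, and the 95% intervals are over genes. Alternatives were the zero point, the place read in a gene, the distance limit, averaging, the background genes and the minimum run. Promoter windows came from RefSeq; the sense orientation was checked by the position of TATAAA on both strands.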

Additional observations from a re-analysis of the deposited data

How the results depend on the processing

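The number of members above 0 was 37 of 40 at the deposited zero point, with the autosomal median (-0.30) as zero point, at either gene end, as the mean inside the gene or within 150 kb of the midpoint, and with a distance limit of 20 kb. It was 33 of 36 at the transcription start site and 36 of 39 with members within 1 Mb counted once. Above 0.5 lay 33 of 40, against 64.0% of protein-coding genes. No member changed sign in 236 values under these alternatives, and the largest move was 0.71. These values share 1 profile smoothed over 300 kb, so they are not independent readings. The median of 1.42 became 1.73 with that zero point, a shift that applies to every gene, and the mean was 1.19. It ranged from 1.42 to 1.52 under the other alternatives. With the moved zero point Ncapg, at -0.15, was the late member nearest to 0. Against all annotated genes 23 members, not 17, lay above the upper quartile and 2, not 3, below the lower. With the moved zero point 9 members, not 11, lay in early domains under 1 Mb, and the median domain length was 2.02 Mb. Without a minimum run it was 1.51 Mb, and with one of 300 kb 1.52 Mb. Neighbours were also counted within 250 and 1000 kb, settings chosen after seeing the data. Of the members with the fewest neighbours (up to the lower quartile), 10 of 12 and 16 of 19 were above 0. The shares of all protein-coding genes in those classes were 52.4% and 54.3%. No share of all genes is given for the start site, the gene ends, the means or the 20 kb limit. None is given for members counted once or for the moved zero point either. Whether the excess over all genes holds in those readings was not tested. Leaving out a replicate was not possible. No paired analysis was possible because each fraction had 1 library. Depth is unknown, so no limit from counts can be given.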
